A study of Mus musculus with 6 samples.

Results

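The complement genes described here are 9: the 3 chains of the recognition molecule C1q (C1qa, C1qb and C1qc), the proteases C1r and C1s (C1ra and C1s1), the components C4 (C4b), C2 and C3, and Serping1, which encodes the C1 inhibitor. They were chosen by symbol from a table of 45703 mouse genes, and each matched 1 row. The study sequenced the RNA of 6 replicate cultures, all of 1 group, grown from dorsal root ganglia, the clusters of sensory neurons beside the spinal cord. The ganglia came from wild-type C57BL/6 mice 4 to 6 weeks old, and no genotype, treatment or time was compared. Tissue was digested with Liberase TH and TM, and cells were kept for 7 days on poly-L-lysine in DMEM/F12 with 10% FCS, penicillin, streptomycin and 10 ng/ml each of EGF and FGF, so every culture carried serum and both growth factors. Cells of 2 dishes were pooled for each RNA, and poly-A RNA was sequenced from 500 ng. The design text calls the cultures biological replicates, and nothing in it ties a culture to an animal. Permutation p-values therefore rest on the spread between these 6 cultures. Chi-square p-values set that spread against counting error.

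Complement is a cascade of plasma and tissue proteins. In the classical pathway C1q binds antibody or other surfaces, C1r cleaves and activates C1s, and C1s cleaves C4 and C2, whose fragments form the enzyme that cleaves C3. The C1 inhibitor blocks C1r and C1s. The liver makes most plasma complement, with C1q as an exception that comes mainly from macrophages and related myeloid cells. In peripheral nerve, complement is known for tagging debris after injury.

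Counts summed to between 20070639 and 22968642 per culture. Between 13.4% and 14.7% of the table's values per library were not whole numbers. The 9 genes held between 0.0281% and 0.0505% of all counts. Levels are given as CPM, counts per 1000000 counts of the library, and as CPM per kb, CPM divided by the gene's combined exon length. All 8 glial lineage markers and all 8 neuron markers reached 1 CPM in every culture. Among the neuron markers Tubb3 was the highest on average and Rbfox3 the lowest. Of 6 hepatocyte markers and 6 lymphocyte markers, 0 did, and the lists summed to at most 1.70 and 0.473 CPM in any culture. RNA integrity numbers were at least 8.7 in all samples, per the labels.

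All 9 genes had counts in all 6 cultures, over a wide range of levels. All but C2, 8 of the 9, reached 1 CPM in every culture. So did 30.4% of all genes of the table and 55.8% of the protein-coding ones. C4b and Serping1 were the highest per kb of exon, at means of 50.2 and 33.0 CPM, and C2 was the lowest, at 0.391 CPM. By the SD of the log2 level the 3 C1q chains differed most between cultures, being high in the same 3 of them, whereas C4b and C1ra differed least. Culture 1 held the lowest value of every gene but C4b.

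Serping1 and C3 lie apart from the other genes, which sit near one another on chromosomes 4, 6 and 17. Of the 9, 5 had a promoter in the RefSeq table used (GRCm38.p6), which are C1qb, C1qc, C1ra, C1s1 and C3. Both C1q promoters are printed because the C1q chains were high in the same 3 cultures, as described further on. The 250 bases before each start are in lower case, with the letters GAGGAA, the core recognised by the myeloid transcription factor PU.1, in capitals on whichever strand they lie. The C1qb window is chr4:136886201-136886450 and the C1qc window is chr4:136892915-136893164. They lie before the starts the table gives at 136886200 and 136892914. Both are on the minus strand and written 5′ to 3′ toward the gene. The C1qc gene as annotated reaches 136892936, past the start given, so the last bases of its window lie within the gene. Distances are counted from the starts given.
C1qb: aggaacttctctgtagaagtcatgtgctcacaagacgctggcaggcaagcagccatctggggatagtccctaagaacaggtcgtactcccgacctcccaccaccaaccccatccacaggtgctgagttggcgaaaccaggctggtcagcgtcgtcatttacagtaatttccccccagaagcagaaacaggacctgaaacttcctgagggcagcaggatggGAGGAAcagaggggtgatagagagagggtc
C1qc: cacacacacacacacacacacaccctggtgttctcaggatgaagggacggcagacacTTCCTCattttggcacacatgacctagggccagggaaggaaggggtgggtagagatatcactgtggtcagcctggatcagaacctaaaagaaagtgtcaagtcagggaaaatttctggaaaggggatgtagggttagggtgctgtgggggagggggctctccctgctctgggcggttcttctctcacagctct
The motif began 30 bases before the start in C1qb, and in C1qc it lay on the opposite strand, as TTCCTC, 193 bases before the start. It is common, being present on either strand in 23.3% of the 32851 promoter windows of this length. The windows were also searched on both strands for the STAT core TTCNNNGAA (7.02% of windows), TATAAA (12.4%) and CCAAT (33.8%). A match to TTCNNNGAA can overlap one to GAGGAA, and none did here. None of these 3 was found in the windows of the 5 genes, and GAGGAA was not found in those of C1ra, C1s1 and C3.

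The C1r genes are shown because C1ra has a near copy, C1rb, on the same strand of chromosome 6. The bases printed lie before the starts of the genes, so their identity is no measure of how reads are counted. The 99 bases directly before the C1ra start (chr6:124512522-124512620, plus strand) matched a stretch upstream of C1rb (chr6:124570180-124570278, plus strand) with 6 mismatches, an identity of 93.9%. The start given for C1rb is at 124570430, so its stretch does not lie directly before the start. Capitals mark the bases that differ.
C1ra: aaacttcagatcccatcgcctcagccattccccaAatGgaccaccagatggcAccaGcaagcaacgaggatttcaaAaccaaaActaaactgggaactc
C1rb: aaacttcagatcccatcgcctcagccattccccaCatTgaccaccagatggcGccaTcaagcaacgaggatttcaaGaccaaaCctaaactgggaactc
The near copies return below, beside the levels of C1ra, C1s1 and C4b.

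C1qa, C1qb and C1qc encode the 3 chains that assemble into C1q. They lie side by side on the minus strand of chromosome 4 (GRCm38.p6), C1qb at 136880126 to 136886200, C1qc at 136889801 to 136892936 and C1qa at 136895916 to 136898844, with no other gene of the table between them. C1qa measured 2.61, 4.01, 18.2, 25.9, 20.7 and 6.31 CPM in cultures 1 to 6. C1qb measured 2.83, 6.19, 23.0, 29.1, 30.6 and 8.37 CPM in the same order. C1qc measured 1.70, 4.87, 18.6, 26.6, 24.0 and 5.50 CPM. Cultures 3, 4 and 5 were high for all 3 chains, cultures 1, 2 and 6 were low, and no low culture reached any high one. The highest culture exceeded the lowest 9.92-fold for C1qa, 10.8-fold for C1qb and 15.6-fold for C1qc. Per kb of exon the means were 15.1 ± 11.1 CPM for C1qb, 12.0 ± 9.12 CPM for C1qa and 12.0 ± 9.59 CPM for C1qc (SD, n = 6). C1qb was above C1qa in 6 of 6 cultures, by 0.34 ± 0.20 on the log2(CPM per kb + 0.1) scale (SD, n = 6; two-sided exact sign-flip permutation p = 0.0312, the smallest that 6 cultures allow, adjusted p = 0.0363 over 36 pairs of genes). C1qa and C1qc differed by 0.10 ± 0.32 on that scale, with C1qa higher in 4 of 6 cultures, which is within their spread (exact permutation p = 0.531). Their proportions changed less than their levels, with 0.647 to 0.923 counts of C1qa per count of C1qb.

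Macrophage marker genes moved with the C1q chains. Of 12 markers, 8 reached 1 CPM in every culture, and the list summed to 183, 207, 481, 587, 598 and 244 CPM in cultures 1 to 6. The same 3 cultures were high. Lyz2, the lysozyme of myeloid cells, was the most abundant marker, at 35.6 to 348 CPM, and Cd163, a scavenger receptor, was the lowest, at 0 to 0.185 CPM. Mertk, named after its values were seen, was nearly level at 99.9 to 133 CPM. When the mean log2(CPM + 0.5) of the list was subtracted in each culture, the SD of the log2 level went from 1.30 to 0.38 for C1qa, from 1.33 to 0.39 for C1qb and from 1.46 to 0.53 for C1qc. Subtracting the fibroblast list in the same way left 0.72, 0.63 and 0.72. In RNA from whole cultures, fewer cells of a type and less RNA per cell cannot be told apart, and the part of the macrophage genes in the C1q levels was not tested.

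**Figure D1:**
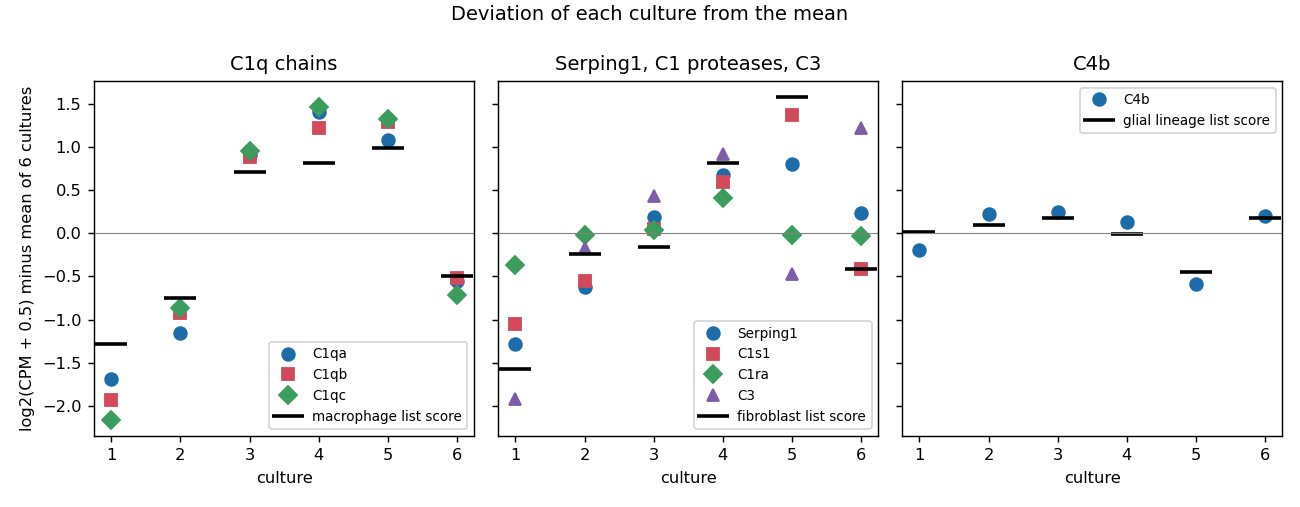
Log2(CPM + 0.5) of each gene minus its mean over the 6 cultures (vertical axis) for cultures 1 to 6 (horizontal axis). Points are genes and black bars are the mean of a marker list treated the same way, macrophage on the left, fibroblast in the middle and glial lineage on the right. The C1q chains and the macrophage bar are above 0 in cultures 3, 4 and 5 and below it in cultures 1, 2 and 6.

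C1ra and C1s1 encode the serine proteases of the C1 complex. C1ra lies at chr6:124512621-124523440 on the plus strand and C1s1 at chr6:124530344-124542392 on the minus strand, with 6903 bases and no gene between them. C1ra measured 6.49, 8.39, 8.74, 11.4, 8.37 and 8.29 CPM in cultures 1 to 6, a mean of 3.12 ± 0.573 CPM per kb (SD, n = 6). C1s1 measured 2.83, 4.24, 6.67, 9.94, 17.5 and 4.69 CPM, a mean of 2.45 ± 1.74 CPM per kb (SD, n = 6). The neighbours had different profiles: C1ra changed 1.76-fold from lowest to highest and peaked in culture 4, whereas C1s1 changed 6.17-fold and peaked in culture 5. As a result the counts of C1ra per count of C1s1 went from 2.29 in culture 1 to 0.479 in culture 5. Their difference per kb, 0.56 ± 0.78 on the log2 scale with C1ra higher in 5 of 6 cultures, did not pass (n = 6, exact permutation p = 0.125, adjusted p = 0.132).

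The summed fibroblast, macrophage, endothelial and mural markers were all highest in culture 5 and lowest in culture 1, as was C1s1. The 8 fibroblast genes summed to 3378, 6285, 4576, 7769, 14560 and 4956 CPM in cultures 1 to 6, and 7 of them reached 1 CPM in every culture. Col1a2, a collagen chain, was the most abundant of them, at 1880 to 3899 CPM, and Dpt, which encodes dermatopontin, was the lowest, at 0.871 to 10.2 CPM. Subtracting the list's mean log2 level took the SD of C1s1 from 0.88 to 0.31, and subtracting that of the macrophage list took it to 0.38. For C1ra the SD went from 0.24 to 0.94 with the fibroblast list and to 0.80 with the macrophage list. The part of any of these lists in the level of C1s1 was not tested.

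C4b, the highest of the 9 genes on average, encodes the component whose cleavage product binds covalently to target surfaces. It lies at chr17:34728139-34743902 on the minus strand. C4b measured 241, 322, 327, 302, 183 and 316 CPM in cultures 1 to 6. Culture 5 was the lowest, culture 1 was next, and the other 4 lay within 302 to 327 CPM. Its mean was 50.2 ± 10.3 CPM per kb (SD, n = 6), and the highest culture exceeded the lowest 1.79-fold. C4b alone made up 47.5% to 85.8% of the counts of the 9 genes in a culture. The 8 glial lineage markers summed to 6565, 6566, 6362, 5835, 4495 and 6315 CPM, also lowest in culture 5. In culture 1, where C4b was low, the glial sum was near its highest. Gfra3, named after its values were seen, was the only glial marker not lowest in culture 5. It was lowest in culture 2, at 68.6 CPM, and highest in culture 3, at 148 CPM. The 8 neuron markers summed to 1618, 1099, 1992, 1388, 939 and 1506 CPM, lowest in culture 5 and highest in culture 3, as was C4b. S100b was the lowest of the glial markers, at 24.8 to 58.2 CPM. Subtracting the glial list's mean log2 level took the SD of C4b from 0.33 to 0.15. The part of the glial or neuron genes in the level of C4b was not tested.

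C2 encodes the protease that joins the C4 fragment in the C3 convertase. It lies at chr17:34862602-34882100 on the minus strand, 87 bases from Cfb, its counterpart in the alternative pathway. C2 measured 0.392, 0.638, 1.02, 1.25, 1.62 and 1.29 CPM in cultures 1 to 6, from 9 to 34 counts. Per kb it was the lowest of the 9 genes in each culture, with a mean of 0.391 ± 0.172 CPM per kb (SD, n = 6).

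C3, the component on which all activation routes converge, lies at chr17:57203967-57228136 on the minus strand. C3 measured 1.31, 5.58, 8.72, 12.4, 4.44 and 15.4 CPM in cultures 1 to 6, a mean of 1.53 ± 1.01 CPM per kb (SD, n = 6). Its highest culture was culture 6, in which the C1q chains and C1s1 were low, and its lowest was culture 1. The range was 11.8-fold. Subtracting a marker list's mean log2 level left the SD of C3 at 1.08 to 1.21 for the macrophage, fibroblast and glial lineage lists, against 1.14 before. C3 was the only one of the 9 genes that overlapped another gene of the table, Mir6978, which had at most 0.5 counts.

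Serping1 encodes the C1 inhibitor, a serpin that inactivates C1r and C1s. It lies at chr2:84765360-84775444 on the minus strand. Serping1 measured 21.9, 35.1, 61.9, 86.9, 94.7 and 63.7 CPM in cultures 1 to 6, a mean of 33.0 ± 15.4 CPM per kb (SD, n = 6). Culture 5 was 4.33 times culture 1. For every count of C4b there were 0.0906 counts of Serping1 in culture 1 and 0.518 in culture 5. Counts of C1s1 per count of Serping1 ranged from 0.0736 in culture 6 to 0.184 in culture 5, and per kb Serping1 exceeded C1s1 in 6 of 6 cultures, by 3.78 ± 0.42 on the log2 scale (SD, n = 6). Subtracting a list's mean log2 level took the SD of Serping1 from 0.80 to 0.42 for the macrophage list and to 0.53 for the fibroblast list. Endothelial markers (6 genes, 3 of them at 1 CPM or more in every culture) summed to 13.1 to 126 CPM, with Cdh5 the highest on average and Tek the lowest. Mural markers (5 of 6 genes) summed to 207 to 1820.4 CPM, with Acta2 the highest and Des the lowest. Both lists were lowest in culture 1 and highest in culture 5, as Serping1 was. The part of any of these lists in the level of Serping1 was not tested.

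Ordered by the mean log2 level per kb, the genes ran C4b, Serping1, C1qb, C1qa, C1qc, C1ra, C1s1, C3 and C2. Of the 36 pairs, 31 had the same gene higher in 6 of 6 cultures, and these 31 had an adjusted p of 0.0363 (two-sided exact sign-flip permutation test). That value is the same for small and large differences, because each pair had the smallest p that 6 cultures allow. An error in a gene's exon length or in the division of shared reads would recur in every culture, and the test does not cover it. Among neighbours in the order, Serping1 exceeded C1qb by 1.42 ± 0.69 and C3 exceeded C2 by 1.51 ± 0.84 on the log2(CPM per kb + 0.1) scale, besides the step from C1qb to C1qa. The other steps did not exceed their spread: C4b over Serping1 was 0.74 ± 0.92 (exact permutation p = 0.0938), C1qc over C1ra was 1.36 ± 1.37 (exact permutation p = 0.0938), and C1s1 over C3 was 0.71 ± 1.20 (exact permutation p = 0.25). Per kb, Serping1 was above C4b in culture 5, at 51.5 against 32.6 CPM, and C1ra was above C1qc in culture 1, at 2.35 against 1.51 CPM.

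**Figure D2:**
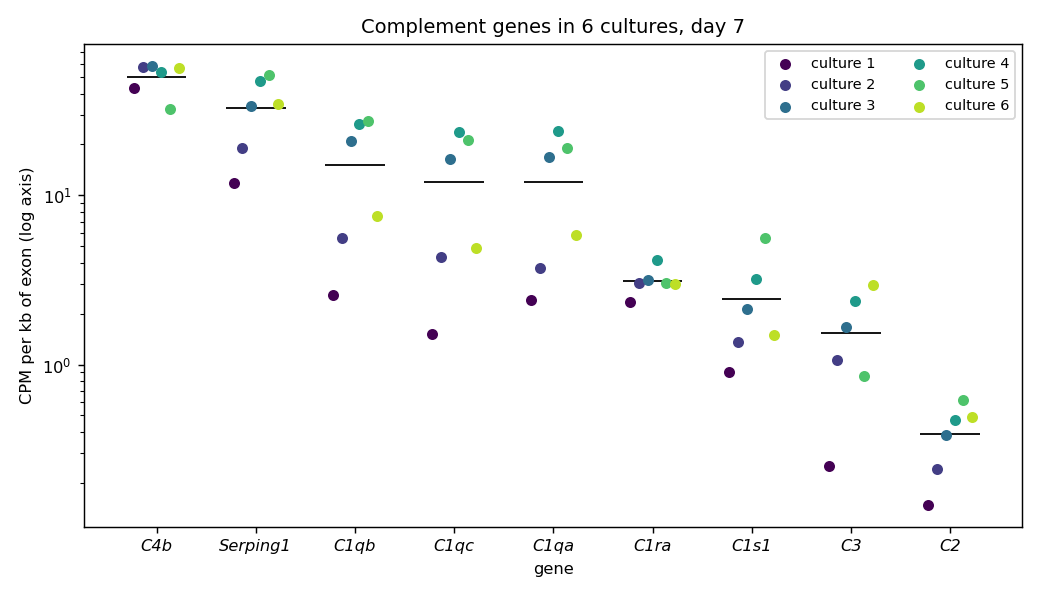
CPM per kb of exon on a log axis (vertical) for the 9 complement genes (horizontal), with 1 point per culture and a bar at the mean of 6 cultures. C4b and Serping1 are the highest, C2 is the lowest, and the C1q chains and C3 spread over about an order of magnitude while C4b and C1ra stay within 1.79-fold and 1.76-fold.

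The cultures differed most for C1qc, whose SD of log2(CPM + 0.5) was larger than that of 99.6% of the 14998 genes that passed the count filter. C1qa, C1qb and C3 stood at 99.1%, 99.2% and 98.5%, C1s1 and Serping1 at 97.5% and 97.1%, C4b at 81.2% and C1ra at 69.8%. The median SD was 1.01 over the 8 complement genes that passed and 0.16 over all genes that passed. C2 did not pass, with 9 to 34 counts. All 8 tested genes varied beyond counting noise (chi-square test over the 6 cultures, Benjamini-Hochberg adjusted over all genes), as did 76.3% of all genes tested, so that call by itself does not set them apart. Adjusted p ranged from 4.69e-299 for Serping1 to 4.44e-05 for C1ra, and for C1ra it was 0.106 without culture 4. edgeR's quasi-likelihood dispersion, which asks whether a gene varies more than genes of similar level, called 0 of the 8 and 0 of the 14998 after adjustment. Before adjustment, edgeR gave 6 of the 8 a p under 0.05, against 5.39% of all genes. The exceptions were C1ra and C4b.

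Culture 1 held the lowest CPM of 8 of the 9 genes, C4b being the exception, and of 7 of the 8 that passed the filter, against 23.8% of all genes that passed. C4b was lowest in culture 5, as were 26.2% of all genes. The highest culture differed between the genes: culture 5 for C1qb, C1s1, C2 and Serping1 (29.2% of all genes), culture 4 for C1qa, C1qc and C1ra (9.37%), culture 3 for C4b (20.0%) and culture 6 for C3 (12.5%). Genes that changed at least 4-fold between cultures made up 4.44% of those that passed, and C1qa, C1qb, C1qc, C1s1, C3 and Serping1 were among them. C2, below the filter, changed 4.15-fold.

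For each gene the 3 closest profiles were sought among 11925 genes of at least 5 CPM on average, by the root mean square difference of log2(CPM + 0.5) centred over the 6 cultures. They were Tyrobp (0.118), Slc15a3 (0.148) and Adgre1 (0.155) for C1qa, Tyrobp (0.101), Lilrb4a (0.121) and Itgam (0.133) for C1qb, and Lilrb4a (0.144), Itgam (0.159) and Itgb2 (0.186) for C1qc. Tyrobp and Adgre1 are in the macrophage list. Tyrobp itself measured 1.57, 3.01, 11.8, 15.7, 15.0 and 4.54 CPM in cultures 1 to 6. The closest to C1s1 were Cyba (0.119), Inhbb (0.119) and Thbd (0.128), and to Serping1 Nqo1 (0.097), Jag1 (0.105) and Lgals9 (0.157). C4b was closest to Tent5c (0.043), Arvcf (0.061) and its near copy C4a (0.064), and C1ra to Ogn (0.070), Zswim7 (0.082) and Paox (0.089). C2 was closest to Cald1 (0.056), Chaf1a (0.068) and Arap2 (0.074). At the 9 to 34 counts of C2, the added 0.5 CPM narrows its log2 range. Its differences therefore cannot be compared with those of the other genes. C3 had no profile as close as those named above: Pdgfb (0.310), Crym (0.359) and Sfrp5 (0.410) came nearest. Pdgfb measured 11.5, 31.7, 43.3, 44.4, 31.2 and 78.1 CPM, lowest in culture 1 and highest in culture 6 like C3.

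Across the 6 cultures, 27 relations between the 9 genes and the macrophage, fibroblast and glial lineage scores were computed with exact permutation of the cultures. The 24 of the 8 genes that passed the count filter were adjusted over all 14998 genes within a list, and C2 has no adjusted value. None of the 24 passed, and neither did any of the 14998 genes for any list. In data simulated with 200 genes tied closely to a score, the same test also passed 0 of the 200 after adjustment. That outcome was fixed in advance: the smallest exact permutation p there, 0.00278, is too large for 200 genes among 14998 to pass. The simulated score held a tied value, which the scores of the cultures did not, so the cultures allowed a smaller p. C1qb with the macrophage score had an exact permutation p of 0.00139 and an adjusted p of 0.0879. A gene with so small a p passes only if many others share it, so a count of 0 is no measure of how many relations exist. Before adjustment, by Pearson's r, 6 of the 9 had p under 0.05 with the macrophage score and 6 of the 9 with the fibroblast score. All were positive, against 10.3% and 13.3% of all genes. Without culture 1 these counts were 3 and 1. C4b was the only gene with p under 0.05 for the glial lineage score, against 6.76% of all genes in that direction, and without culture 5 there was none. By Spearman's rank correlation, exact permutation p for C2 was 0.0583 with the macrophage score and 0.175 with the fibroblast score. It was 0.0583 for Serping1 with the fibroblast score and 0.103 for C4b with the glial score. The other relations counted here stayed under 0.05. The macrophage score set cultures 1, 2 and 6 apart from 3, 4 and 5, and the glial score set culture 5 apart, so no r is given.

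C4b, C1ra and C1s1 have a near copy whose transcripts share long stretches, and how reads that fit both were divided is not given in the sources used here. C4b and C4a share 96.1% of aligned bases of their longest GENCODE M21 transcripts, C1ra and C1rb 98.0%, and C1s1 and C1s2 95.9%. Of all 100-base windows, 16.5% of those in C4b, 34.5% in C1ra and 7.90% in C1s1 occurred unchanged in the copy. The C1q chains share none with one another. Counts were not whole in at least 1 culture for C4b, C1ra, C1s1 and C3, and were whole in every culture for C1qa, C1qb, C1qc, C2 and Serping1. C4a had 14.2% ± 0.723 as many counts as C4b (SD, n = 6; range 13.5% to 15.3%). C1rb had 35.2% ± 2.38 as many as C1ra (SD, n = 6; range 31.3% to 38.0%). These 2 proportions were nearly constant over the cultures. C1s2 had 13.8% ± 4.85 as many as C1s1 (SD, n = 6), from 6.16% in culture 5 to 20.0% in culture 1, opposite to the order of C1s1 itself at its ends. With the copies' counts added, C4b was 322 ± 66.1 CPM against 282 ± 57.8, C1ra 11.6 ± 2.04 against 8.62 ± 1.58 and C1s1 8.48 ± 5.60 against 7.64 ± 5.41 (SD, n = 6). These sums cover only reads of the 3 genes that were counted to a copy. Shared reads that were dropped, or reads of a copy counted to these genes, are not covered. The sums therefore do not bound the uncertainty of the 3 levels.

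**Figure D3:**
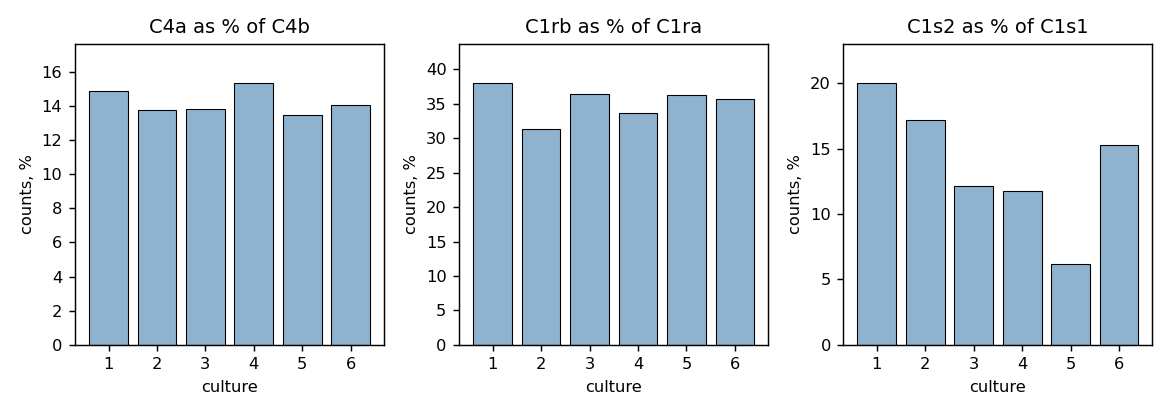
Counts of C4a, C1rb and C1s2 as a percentage of the counts of C4b, C1ra and C1s1 (vertical axes, starting at 0) in cultures 1 to 6 (horizontal axes), 1 bar per culture. C4a and C1rb keep to 13.5% to 15.3% and 31.3% to 38.0%, while C1s2 is lowest in culture 5 and highest in culture 1.

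The rest of the cascade was unevenly represented. Of 51 other complement genes, 20 reached 1 CPM in every culture, against 30.4% of the 45703 genes and 55.8% of the protein-coding ones. Of the 9 genes above, 8 did. Of the 20, 8 were membrane regulators, which protect the cell's own surface. Among 10 such genes these were Csmd1, at 236 to 325 CPM, Cd59a, which blocks the membrane attack complex, at 130 to 241 CPM, Cr1l, the rodent regulator Crry, at 40.7 to 46.0 CPM, Cd59b, Cd55, Csmd2, Cd46 and Susd4. Cr1l varied little: its highest culture exceeded its lowest 1.13-fold, and its SD was larger than that of 7.25% of genes. Per kb, Cd59a stood at 59.4 ± 11.6 CPM and Cr1l at 22.7 ± 1.05 CPM (SD, n = 6), beside 50.2 for C4b and 33.0 for Serping1. Csmd1, with 53506 bases of exon, stood lower per kb, at 5.46 ± 0.630 CPM (SD, n = 6).

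The membrane attack complex formed the other end. Of 7 terminal components 0 reached 1 CPM in every culture, and C8a, C8b and C9 had at most 3 counts in every culture. A count of 0 allows up to 0.131 to 0.149 CPM, taking 3 counts per library. In the alternative pathway 1 of 3 genes did, Cfp, which encodes properdin, at 4.35 to 10.1 CPM, while Cfd, the factor D gene, had at most 3 counts. In the lectin pathway and its relatives 2 of 9 did, the collectin Colec12 at 7.28 to 106 CPM and the protease Masp1 at 3.23 to 10.8 CPM. Mbl1 and Fcnb, soluble recognition molecules of that pathway, had no count. Among the soluble regulators Clu, the clusterin gene, was at 6.26 to 16.5 CPM, and C4bp, Cpn1 and Cpn2 had at most 3 counts. The genes at or under 3 counts were named after their values were seen.

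Colec12 was lowest in culture 1 and highest in culture 5, as was Serping1. Clu ran the other way, highest in culture 1 and lowest in culture 5. Of 10 receptors 5 reached 1 CPM in every culture. Lrp1, a large scavenger receptor, was at 313 to 796 CPM and Cd93 at 2.44 to 38.4 CPM. C3ar1, the receptor for the C3a fragment, was at 2.22 to 21.5 CPM, and Itgam and Itgb2, which together form complement receptor 3, at 1.74 to 25.6 and 1.07 to 18.7 CPM. These 5 were all lowest in culture 1 and highest in culture 5. Of all genes that passed the count filter, 23.8% were lowest in culture 1 and 29.2% highest in culture 5. The share with both was not computed. Cr2, which encodes receptors for C3 fragments on B cells and follicular dendritic cells, had no count.

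**Figure D4:**
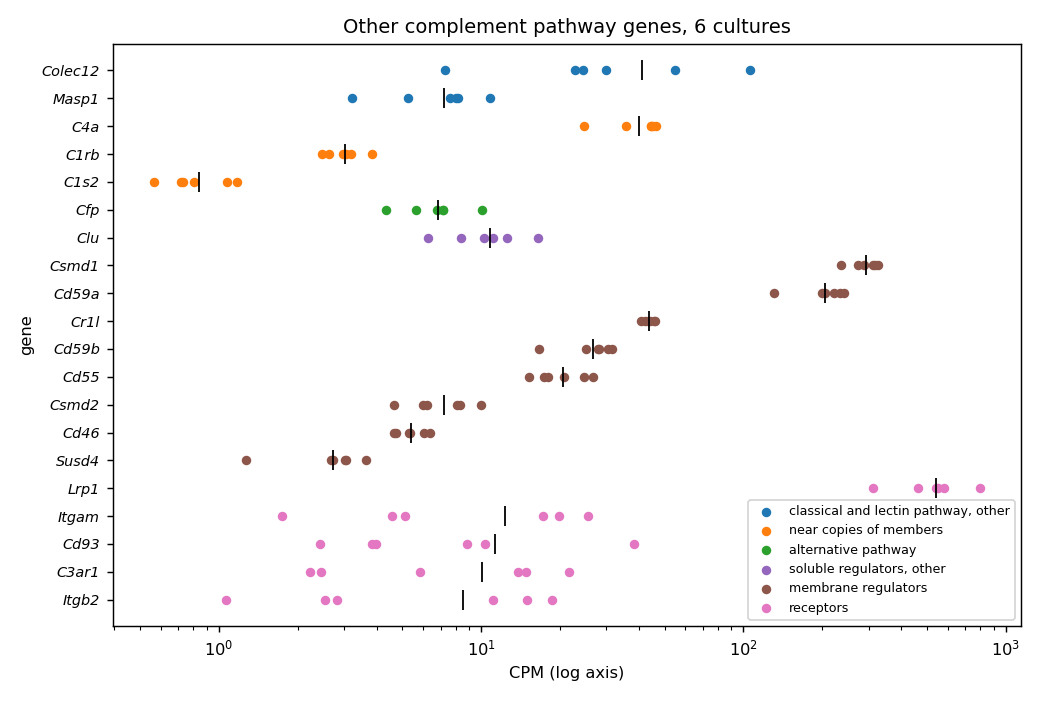
CPM on a log axis (horizontal) of 19 of the other complement genes with at least 1 CPM in every culture, and of C1s2 (vertical axis), 1 point per culture and a bar at the mean, coloured by role. Membrane regulators such as Cr1l form tight groups of points, whereas Colec12 and the receptors other than Lrp1 spread over about an order of magnitude.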

How the data were processed

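The authors deposited 1 table of counts per gene for the 6 libraries, with the combined exon length of each gene, per the file headers. The deposited values are treated here as estimated counts, since 13.4% to 14.7% of them per library are not whole. The submitters' processing notes name bcl2fastq 2.20.0.422, cutadapt 2.5, STAR 2.7.2b, featureCounts 1.6.4 and Subread, and the build GRCm38.p6, with no role or order. The strand setting and the handling of reads that fit several genes are not given in the sources used here. The kit was a stranded poly-A kit, per the labels' protocols.

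CPM used library totals. Counts were rounded for the spread test: expected counts in proportion to TMM-scaled library sizes (edgeR 4.0.16, filterByExpr, R 4.3.3), a chi-square test per gene, and Benjamini-Hochberg adjustment over 14998 genes. On simulated Poisson counts it recovered 200 of 200 genes changed by 2-fold, with 8 other calls among 15614 genes. It made 0 calls among 15611 with none changed. Apart from the changed genes, the simulated counts varied by counting error only, so they do not show how the test behaves on cultures that differ beyond it. A call means an adjusted p under 0.05. Differences between genes used log2(CPM per kb + 0.1), and relations used log2(CPM + 0.5), with Python 3.11.15 and scipy 1.17.1. Promoter windows came from the RefSeq table of GRCm38.p6, and transcripts from GENCODE M21. All 45703 gene IDs matched RefSeq, and the start and end of 9 of 9 complement genes were the same in the table and in RefSeq.

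The genes, the pathway list and the marker lists were chosen with earlier results of these data known. The genes named besides the 9 are pathway genes of at least 1 CPM in every library, their near copies, the highest and lowest gene of a marker list, and the 3 closest profiles, except a few genes that are not reported here. Alternatives were DESeq2 1.42.0 size factors, TMM scaling, rounded counts, other pseudocounts, filters and list scores, edgeR's quasi-likelihood dispersion, and leaving out each culture.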

Additional observations from a re-analysis of the deposited data

Results flagged for a closer look

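In 5 of 38 measures taken over the 6 cultures, 1 culture stood far from the other 5, its gap to the nearest divided by the whole range exceeding Dixon's 95% critical value. Chance flags about 1 in 20 such measures, or 1.9 of 38. None of the 9 complement genes was among them. Cd59a, which blocks the membrane attack complex, was at 130 CPM in culture 5 and at 199 CPM in the nearest culture (ratio 0.690). Cd59b, its paralog, was at 16.6 CPM in culture 5 and at 25.0 CPM in the nearest (ratio 0.637). The glial lineage score, a mean log2(CPM + 0.5), was 8.03 in culture 5 and 8.47 in the nearest (ratio 0.702). The hepatocyte score was -0.46 in culture 5 and -0.84 in the nearest (ratio 0.701), with every gene of that list under 1 CPM. Susd4, a membrane regulator, was at 1.28 CPM in culture 2 and at 2.68 CPM in the nearest (ratio 0.685). Culture 5 accounts for 4 of the 5, which are not independent: Cd59a and Cd59b were both lowest in culture 5 and highest in culture 6. C4b was also lowest in culture 5, as were 26.2% of all genes that passed the count filter.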

How the results depend on the processing

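For the levels of the 9 genes, 83 recomputed values stayed within 1 SD of the reported one and 1 did not, and for the other complement genes at 1 CPM or more and for C1s2 all 189 did. No difference or relation that passed its threshold changed direction. Among single relations with a marker score, 27 values lost an unadjusted p under 0.05 and 3 gained one, and among single tests of spread 9 values lost the call. By edgeR's quasi-likelihood dispersion 0 complement genes varied beyond noise, where the chi-square test called 8 of 8. The test there is against genes of similar level, not against counting error. With any 1 culture left out, pairs of genes at an adjusted p under 0.05 fell from 31 to 0 (186 single values), since 5 cultures allow no p below 0.0625, while 31 to 33 pairs kept 1 direction in every remaining culture. C1ra rose from 8.62 to 11.6 CPM with the counts of C1rb added, an alternative chosen after seeing the data. The mean difference between C1qa and C1qc, within their spread, changed sign without culture 1. C2 was below the count filter. Without that filter it varied beyond counting noise (chi-square adjusted p = 0.00215), and without culture 1, where it passed the filter, it did not (adjusted p = 0.0720). The number of other complement genes detected ranged from 19 to 25. No paired analysis was possible because the study has 1 group, so no replicate number is shared between groups. With 9 to 34 counts for C2, differences between cultures below counting error were not detectable at this depth. The chi-square test on counts covers counting error only.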
